A study of Rattus norvegicus with 10 samples.

Results

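Nrf2 (gene Nfe2l2), 5 antioxidant genes classed as its targets (Txnrd1, Nqo1, Gclc, Gclm and Srxn1) and haem oxygenase 1 (Hmox1) were described in sub-epidermal muscle of arthritic rats. They were taken as the rows of the expression table that carry these 7 symbols, and each symbol had 1 row, so that 7 of the 17221 transcripts in the table are described here. Hmox1 and Txnrd1 were picked because they were higher after acupuncture than after placebo at 34 days, hence their levels at 34 days are a description and carry no test. The other 5 genes entered as members of the same pathway.

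All animals were Wistar females carrying collagen-induced arthritis, a joint disease raised by immunisation with bovine type II collagen in adjuvant, and each of the 10 libraries came from 1 rat. There were 2 rats in each of 5 groups, sampled before therapy (RA_0), at 1 hour of acupuncture (AP_1h) or placebo (PLA_1h), and at 34 days of acupuncture (AP_34d) or placebo (PLA_34d). Acupuncture was a repeated puncture with twirling of a thin needle beside the lumbar spine and below the knee, whereas placebo was a peritoneal injection of sterile saline, so the placebo rats were not punctured at the site that was sampled. All rats were shaved, ages were not given in the sources used here, and untreated rats at 1 hour or at 34 days were not analysed here.

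Nrf2 is a transcription factor that is normally held in the cytoplasm and marked for degradation by Keap1 and the Cul3 ligase. Oxidants and electrophiles modify Keap1, Nrf2 then enters the nucleus, pairs with a small Maf protein (Maff, Mafg or Mafk) and binds the antioxidant response element, a short motif that Bach1 with a small Maf otherwise occupies as a repressor. Its targets supply glutathione, thioredoxin and NADPH, detoxify quinones and break down haem, and in muscle they are known for their response to exercise, injury and inflammation.

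The promoters are printed to show what that motif looks like in the members where it, or the related AP-1 site, was found. RefSeq promoters (rat assembly GRCr8, 250 bases before to 50 bases after each start) matched 6 of the 7 members, with 2 starts for Txnrd1. The core of the antioxidant response element was searched as TGACNNNGC on both strands, and was present in 12.1% of 33469 promoters of this length. It was present in at least 1 window of 3 of the 6 members, Txnrd1, Gclm and Nfe2l2. The AP-1 site, TGANTCA, was present in 7.33% of promoters and, among the members, in Srxn1. An AP-1 site followed by GC can overlap the element, but no overlap occurred in the members. Each line gives the 250 bases before the start, 5′ to 3′ along the gene, with the matches in capitals.
Txnrd1, second start, chr7:22755905-22756154, minus strand: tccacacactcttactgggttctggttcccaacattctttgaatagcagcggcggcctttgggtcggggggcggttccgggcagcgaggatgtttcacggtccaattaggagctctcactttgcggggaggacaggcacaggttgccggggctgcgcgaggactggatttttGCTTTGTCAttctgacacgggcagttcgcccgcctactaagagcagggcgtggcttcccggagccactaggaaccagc
Gclm, chr2:213031885-213032134, plus strand: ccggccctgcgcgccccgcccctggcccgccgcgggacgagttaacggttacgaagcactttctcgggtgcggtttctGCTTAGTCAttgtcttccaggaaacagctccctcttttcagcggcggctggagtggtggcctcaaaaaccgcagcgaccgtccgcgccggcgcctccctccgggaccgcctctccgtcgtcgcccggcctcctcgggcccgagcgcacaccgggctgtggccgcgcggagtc
Srxn1, chr3:161064562-161064811, plus strand: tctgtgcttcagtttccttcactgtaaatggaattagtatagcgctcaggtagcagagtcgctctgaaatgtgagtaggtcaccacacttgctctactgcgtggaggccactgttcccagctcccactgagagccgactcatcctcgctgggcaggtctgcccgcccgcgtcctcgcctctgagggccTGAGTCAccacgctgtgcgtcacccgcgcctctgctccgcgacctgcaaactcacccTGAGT
In Txnrd1 and Gclm the capitals mark the element on the opposite strand, at -78 to -70 and -172 to -164 from the start. In Srxn1 they mark AP-1 sites at -62 to -56 and at -5 to 2, the latter running on past the start, where printing ends. The match in Nfe2l2 lay after the start, at 39 to 47, and Nqo1 and Gclc had no match to either motif in this window. A match describes letters only, and which Txnrd1 start the counted transcript uses was not examined.

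Levels are given in CPM, the counts per 1000000 reads that the authors scaled between libraries, with 5371687 to 8899521 reads per library, so that 1 CPM stood for 4.19 to 10.1 reads. The tissue label was checked against its markers. All 9 skeletal muscle markers were present in each library, with a summed level of 136425 to 339767 CPM, while 4 keratinocyte markers summed to 2.15 to 6.97 CPM. Single myosin genes varied more than this sum. Myh7 ran from 361 CPM in AP_1h replicate 1 to 11934 CPM in PLA_34d replicate 1, with 499 CPM in PLA_34d replicate 2. Myh1 was 6070 and 10230 CPM at AP_1h and 21230 to 38430 CPM in the other libraries. Whether the same kind of muscle was sampled in each rat was not tested. PLA_34d replicate 1 stood apart, with 72.1 CPM of the macrophage gene Siglec1 against at most 6.59 CPM in the other libraries, and the members' differences between AP_34d and PLA_34d and the counts over the related lists are also given without it. The tests are from a limma fit on log2(CPM + 1) over 10259 transcripts, with 1 mean per group, and p-values were adjusted over those transcripts. All 7 members passed the filter of at least 1 CPM in both libraries of a group. With 2 rats against 2 an exact permutation test cannot go below 0.333, so single-gene statements rest on that shared fit and on whether the libraries overlap.

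**Figure D1:**
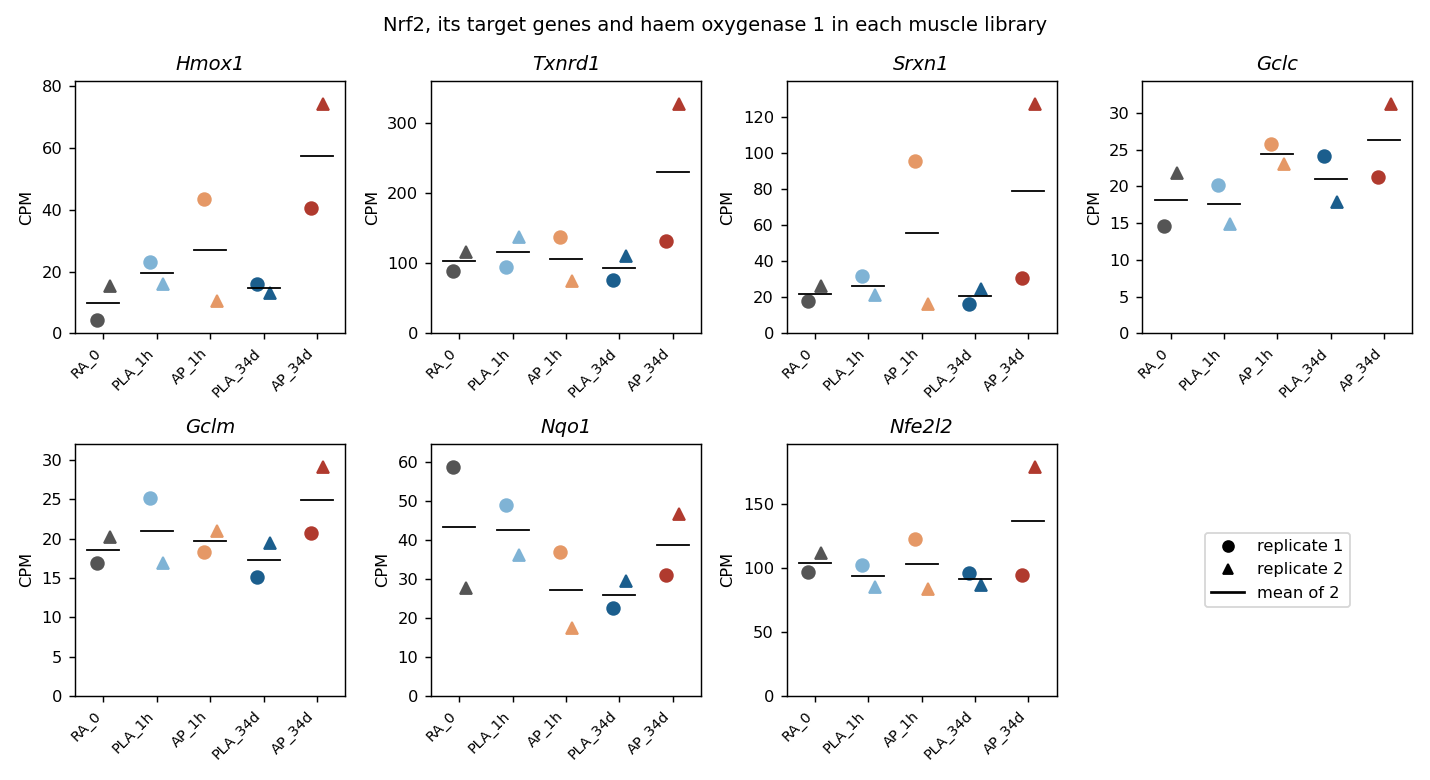
CPM of the 7 members (vertical axis, from 0) in each of the 10 libraries, by group, with circles for replicate 1, triangles for replicate 2 and a line at the mean. AP_34d replicate 2 was the highest library for 6 of the 7 genes, the exception being Nqo1, and AP_1h replicate 1 was next for 4 of them.

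Hmox1 (NM_012580, rn4 chr19:13963139-13969960, plus strand) encodes the inducible enzyme that splits haem into biliverdin, iron and carbon monoxide. It was 40.4 and 74.2 CPM in the AP_34d rats and 16.2 and 13.2 CPM in the PLA_34d rats. It was 43.3 and 10.6 CPM at AP_1h, 23.1 and 16 CPM at PLA_1h, and 4.29 and 15.4 CPM before therapy. Both AP_34d libraries stood above every placebo and untreated library, but AP_1h replicate 1 exceeded the lower of them. By mean the order was AP_34d at 57.3 ± 23.9 CPM (SD, n = 2), AP_1h at 27.0 ± 23.1, PLA_1h at 19.5 ± 5.04, PLA_34d at 14.7 ± 2.07 and RA_0 at 9.87 ± 7.89. In that order each group overlapped its neighbour. The value of RA_0 replicate 1 rests on 18 reads, the fewest of any member in any library, and the rest on up to 497 reads.

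On the log2(CPM + 1) scale Hmox1 was higher by 1.84 (SE 0.66) at AP_34d than at PLA_34d and by 2.58 (SE 0.66) than before therapy, values that chose it or share libraries with that choice. The first was 1.97 without PLA_34d replicate 1 and 1.41 without AP_34d replicate 2. At PLA_34d it differed from RA_0 by 0.74 (SE 0.66), which was 0.61 without PLA_34d replicate 1 and turned to -0.07 without RA_0 replicate 1. At 1 hour, Hmox1 was higher than before therapy by 1.28 (SE 0.66, limma adjusted p = 0.624) in AP_1h and by 1.12 (SE 0.66, adjusted p = 1.00) in PLA_1h, and neither passed the test. The PLA_1h libraries lay above both RA_0 libraries, with 16 against 15.4 CPM in the nearest pair, as did 15.8% of all transcripts. AP_1h differed from PLA_1h by 0.17 (SE 0.66, adjusted p = 1.00), and the sign turned to -0.80 without AP_1h replicate 1. Since RA_0 replicate 1 was the low library, the differences at 1 hour from RA_0 were 0.47 and 0.30 without it. Both comparisons share the RA_0 libraries.

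Txnrd1 (NM_031614, rn4 chr7:23055544-23093815, minus strand) encodes cytosolic thioredoxin reductase, which keeps thioredoxin reduced with NADPH. It was 132 and 327 CPM at AP_34d and 76.5 and 111 CPM at PLA_34d. The other groups lay between 75.4 and 138 CPM, with 137 and 75.4 CPM at AP_1h, 94.8 and 138 CPM at PLA_1h, and 88.7 and 117 CPM before therapy. AP_34d replicate 2 alone stood clear of all others, and AP_34d replicate 1 lay inside the range of the 1 hour groups. The mean was 230 ± 138 CPM at AP_34d and from 93.7 to 116 CPM in the other 4 groups, which overlapped each other. The difference between AP_34d and PLA_34d was 1.17 (SE 0.47), 0.90 without PLA_34d replicate 1 and 0.51 without AP_34d replicate 2. At 1 hour its differences were -0.17 against placebo, -0.0021 in AP_1h and 0.17 in PLA_1h against RA_0 (SE 0.47 each, limma adjusted p from 0.999 to 1.00). Eid3 overlaps this gene in the table, and as the use of strand in counting was not given their reads could be shared, but Eid3 had 0 to 4 reads per library.

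Srxn1 (NM_001047858, rn4 chr3:142457352-142462725, plus strand) encodes sulfiredoxin, which restores over-oxidised peroxiredoxins. It was 30.7 and 127 CPM at AP_34d, 16.3 and 24.7 CPM at PLA_34d, 95.5 and 16.4 CPM at AP_1h, 32.0 and 21.1 CPM at PLA_1h, and 17.9 and 26.3 CPM before therapy. Each acupuncture group thus held 1 library at 95.5 CPM or more and 1 within the range of the other groups, 16.3 to 32.0 CPM. The mean and SD were 79.0 ± 68.3 CPM at AP_34d and 55.9 ± 55.9 CPM at AP_1h, against 20.5 to 26.5 CPM elsewhere, and no neighbours in the order of the groups were separated. Srxn1 differed from RA_0 by 1.49 (SE 0.78, limma adjusted p = 0.967) at AP_34d and by 0.85 (SE 0.78, adjusted p = 0.798) at AP_1h. The former was 0.48 without AP_34d replicate 2, and the latter turned to -0.39 without AP_1h replicate 1. The AP_34d and PLA_34d means differed by 1.60 (SE 0.78), or 1.31 without PLA_34d replicate 1 and 0.59 without AP_34d replicate 2, and AP_1h and PLA_1h by 0.60 (SE 0.78, adjusted p = 1.00), or -0.64 without AP_1h replicate 1.

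The subunits of glutamate-cysteine ligase, the enzyme of the rate-limiting step of glutathione synthesis, varied far less. The catalytic subunit Gclc (NM_012815, rn4 chr8:82724429-82762847, plus strand) was 21.3 and 31.2 CPM at AP_34d, 24.1 and 17.9 CPM at PLA_34d, 25.7 and 23.1 CPM at AP_1h, 20.2 and 14.9 CPM at PLA_1h, and 14.6 and 21.8 CPM before therapy. Both AP_1h libraries lay above both PLA_1h and both RA_0 libraries, by 0.47 (SE 0.34, limma adjusted p = 1.00) and 0.43 (SE 0.34, adjusted p = 0.76) in the means, so that the separation did not pass the test. Higher groups that do not overlap were found for 13.9% and 20.6% of all transcripts in these comparisons. The modifier subunit Gclm (NM_017305, rn4 chr2:218895434-218915491, plus strand) was 20.7 and 29.1 CPM at AP_34d, 15.1 and 19.5 CPM at PLA_34d, 18.3 and 21.0 CPM at AP_1h, 25.2 and 16.8 CPM at PLA_1h, and 16.9 and 20.2 CPM before therapy. Its AP_34d libraries lay above both RA_0 libraries by 0.39 (SE 0.33, limma adjusted p = 0.967) in the means, with 20.7 against 20.2 CPM in the nearest pair. Against PLA_34d, AP_34d was higher by 0.30 (SE 0.34) for Gclc and by 0.49 (SE 0.33) for Gclm, and these became 0.50 and 0.32 without PLA_34d replicate 1, and 0.03 and 0.26 without AP_34d replicate 2.

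Nqo1 (NM_017000, rn4 chr19:37251147-37266040, minus strand) encodes a quinone reductase and was the member with another order of libraries. It was highest before therapy in replicate 1, at 58.7 CPM, with 27.6 CPM in replicate 2. It was 31.1 and 46.5 CPM at AP_34d, 22.5 and 29.4 CPM at PLA_34d, 37.0 and 17.4 CPM at AP_1h, and 48.9 and 36.0 CPM at PLA_1h. In the 6 comparisons the groups of Nqo1 overlapped, except AP_34d, which lay above PLA_34d with 31.1 against 29.4 CPM in the nearest pair. Against RA_0 the differences were -0.08 at AP_34d, -0.63 at PLA_34d, -0.65 at AP_1h and 0.06 at PLA_1h (SE 0.45, limma adjusted p from 0.724 to 1.00). The difference at PLA_34d was -0.44 without PLA_34d replicate 1 and ran from -1.16 to -0.097 when 1 library at a time was left out, and that at AP_1h from -1.18 to -0.12. The difference of AP_1h from PLA_1h was -0.70 (SE 0.45, adjusted p = 1.00), with -1.23 to -0.18 in the same way, and that of AP_34d from PLA_34d 0.54 (SE 0.45), or 0.36 without PLA_34d replicate 1 and 0.26 without AP_34d replicate 2.

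Nfe2l2 itself (NM_031789, rn4 chr3:58366693-58394116, minus strand), whose product is controlled mainly by degradation of the protein, was 94.3 and 179 CPM at AP_34d and 84.0 to 122 CPM in the other 8 libraries. AP_34d replicate 1 lay within that range, at 94.3 CPM. Both PLA_34d libraries, at 96.0 and 86.9 CPM, lay below both RA_0 libraries, at 97.3 and 112 CPM, as did 14.2% of all transcripts, with a difference of -0.19 in the means (SE 0.36, limma adjusted p = 0.931), or -0.26 without PLA_34d replicate 1. The difference between AP_34d and PLA_34d was 0.51 (SE 0.36), 0.58 without PLA_34d replicate 1 and 0.05 without AP_34d replicate 2. AP_34d against RA_0 gave 0.32 (SE 0.36, limma adjusted p = 0.967), which turned to -0.14 without AP_34d replicate 2. At 1 hour its differences lay between -0.16 and 0.12 (SE 0.36, adjusted p from 0.986 to 1.00). No change of the Nrf2 transcript at 1 hour was therefore detectable at this depth and number of rats.

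**Figure D2:**
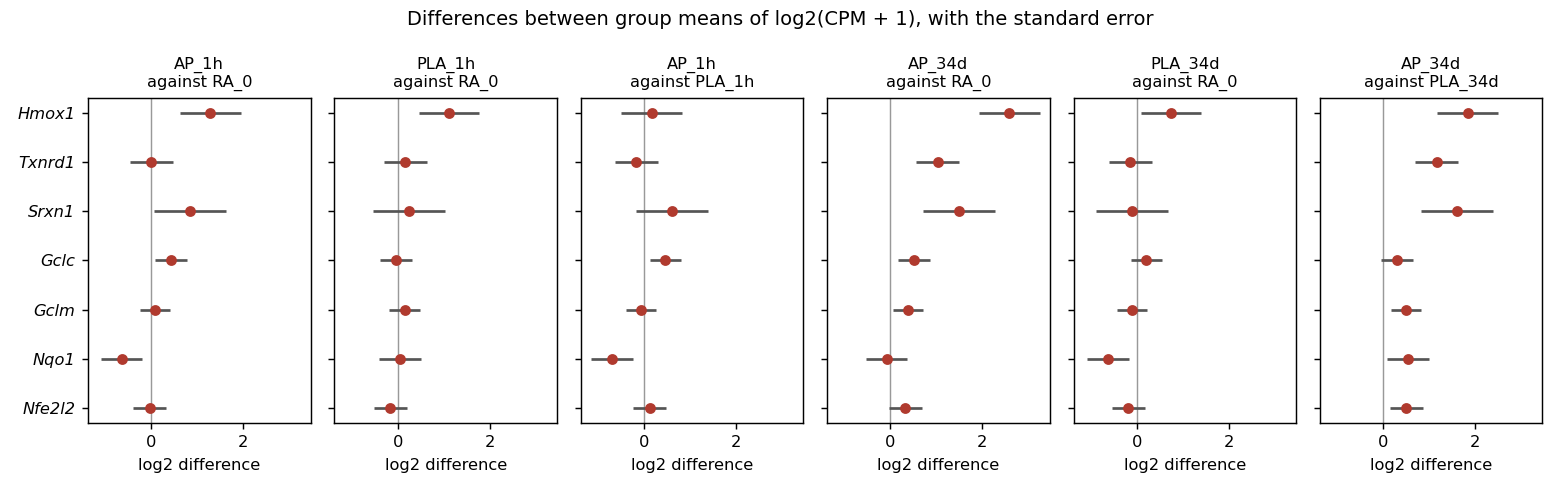
Difference of group means of log2(CPM + 1) for each member (points) with its standard error (bars), for the 6 comparisons. In AP_34d against PLA_34d all 7 points lie right of 0, from 0.30 for Gclc to 1.84 for Hmox1, a comparison that chose Hmox1 and Txnrd1, whereas in AP_1h against PLA_1h they lie from -0.70 for Nqo1 to 0.60 for Srxn1.

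Counted over the members, limma called none of the 7 in any of the 6 comparisons, where it called 0.0292% of all transcripts for AP_1h against RA_0 and 0% for each of the other 5. Limma-voom, edgeR and DESeq2 on reads recovered from the CPM called none of the members either. Among the values open to a test, the smallest unadjusted p was 0.0811, for Hmox1 in AP_1h against RA_0, so that 0 passed 0.05 unadjusted, and over all transcripts 266 to 912 did so per comparison. The selection rule of the study asked for an unadjusted p under 0.05, a 2-fold difference and a mean of at least 1 CPM. By this rule 1 member was picked in AP_34d against RA_0 (Hmox1) beside 2.82% of all transcripts. That comparison shares the AP_34d libraries that chose Hmox1, so nothing is read from it. The same rule picked Hmox1 and Txnrd1 in AP_34d against PLA_34d beside 3.57%, but this is the comparison that chose them and nothing is read from it. It picked 0 members in the other 4 comparisons, beside 6.12% for AP_1h, 1.67% for PLA_1h and 2.42% for PLA_34d against RA_0, and 2.62% for AP_1h against PLA_1h. Of the 5 members that were not picked by value, Srxn1 and Gclm lay above RA_0 in both AP_34d libraries, beside 16.4% of all transcripts. The median difference of those 5 members was 0.12 in AP_1h against PLA_1h, where that of all transcripts was 0.0077, and, as a description in the comparison that chose the other two, 0.51 in AP_34d against PLA_34d, where that of all was 0.0027.

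The members differed most in how much they varied over the 10 libraries. This spread holds differences between groups and times as well as between rats. The highest library exceeded the lowest by 17.3-fold for Hmox1, 7.82-fold for Srxn1, 4.34-fold for Txnrd1, 3.38-fold for Nqo1, 2.15-fold for Gclc, 2.14-fold for Nfe2l2 and 1.92-fold for Gclm. The SD of log2(CPM + 1) over the 10 libraries put Hmox1 and Srxn1 at the 97.5 and 96.5 percentiles of all transcripts, and Gclc, Nfe2l2 and Gclm at 30.4, 30.4 and 16.4. Hmox1 and Txnrd1 were picked on values that enter this spread, so their ranges and the percentile of Hmox1 are a description. Within groups, the higher rat exceeded the lower by 5.83-fold for Srxn1 and 4.08-fold for Hmox1 at AP_1h, and by 4.15-fold for Srxn1 and 2.48-fold for Txnrd1 at AP_34d. Rats before therapy also differed, by 3.60-fold for Hmox1 and 2.12-fold for Nqo1, the latter by 2.13-fold at AP_1h. Fewer cells of a type and less RNA per cell cannot be told apart in these bulk samples.

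To ask whether the members varied together between rats, correlations over the 10 libraries were computed for the 10 pairs of the 5 genes that were not picked by value. Srxn1 and Nfe2l2 had a Pearson r of 0.88 (two-sided permutation p = 0.0016, adjusted over the 10 pairs p = 0.016) and a Spearman rho of 0.71 (permutation p = 0.027, adjusted p = 0.27). Without AP_34d replicate 2 and AP_1h replicate 1, the libraries farthest from the median of Srxn1, r was 0.42, so the relation rests on those libraries. Of deviations from the group means, which removes the differences between groups, r was 0.90. With 2 rats in a group these deviations are pairs of equal size and opposite sign. For Srxn1 they were widest in AP_1h and AP_34d, so this r rests on the same libraries too. The other 9 pairs did not pass, with r from -0.25 for Nqo1 and Gclc to 0.71 for Gclc and Nfe2l2 and adjusted p-values of 0.0995 to 0.486 by the same permutations. Srxn1 also had an r of 0.84 with Hmox1 and of 0.83 with Txnrd1, values without a test, and over the 6 libraries outside 34 days these were 0.85 and 0.60. Nqo1 had the lowest r with Hmox1, 0.10.

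**Figure D3:**
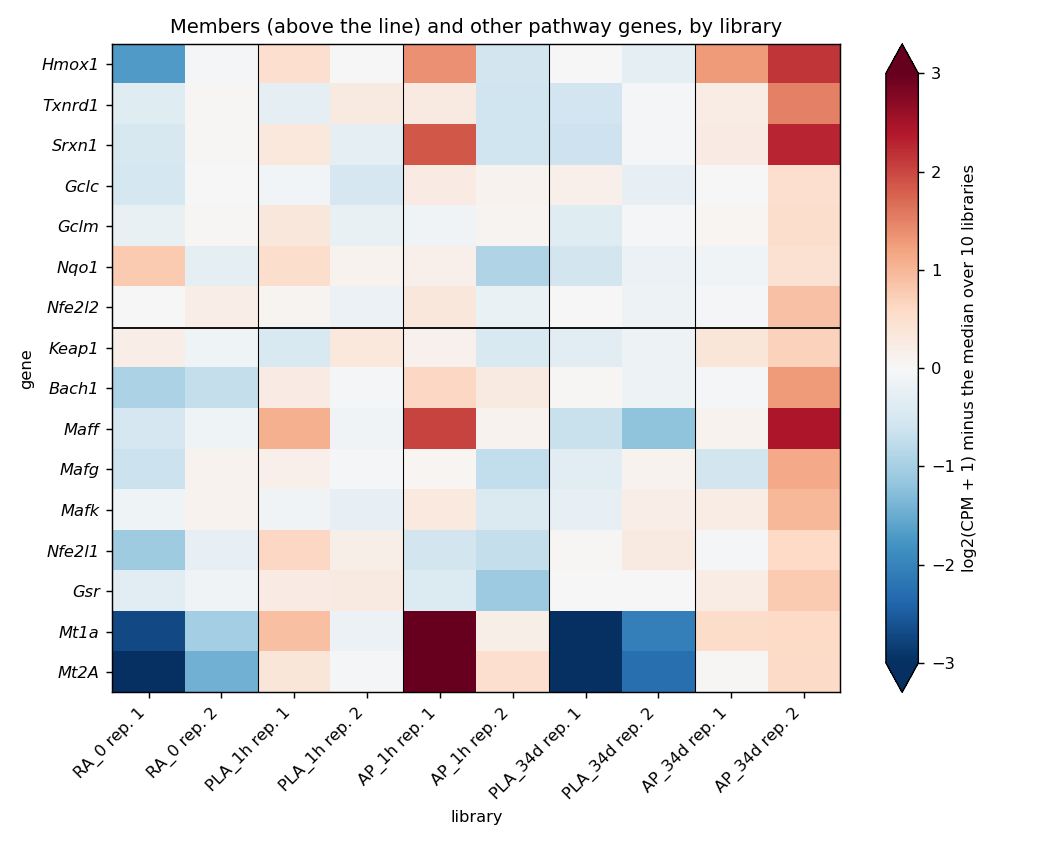
Colour gives log2(CPM + 1) of each gene minus its median over the 10 libraries (red higher, blue lower), with members above the line, other pathway genes under it, and libraries in columns by group. The columns of AP_34d replicate 2 and AP_1h replicate 1 are red for Hmox1, Srxn1 and Maff, the latter at 56.0 and 41.6 CPM, while the replicate of each is paler.

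Among the regulators and partners of Nrf2, several genes peaked in the same libraries. The small Maf gene Maff was 56.0 CPM in AP_34d replicate 2 and 41.6 CPM in AP_1h replicate 1, against 3.55 to 20.9 CPM in the other 8. Mafg and Mafk peaked in AP_34d replicate 2 too, at 73.0 and 133 CPM, with at most 36.5 and 81.3 CPM elsewhere. Keap1, the repressor of Nrf2, was 114 and 143 CPM at AP_34d and 63.9 to 111 CPM in the other libraries, so that both AP_34d libraries were the highest, by 0.78 over PLA_34d (SE 0.35, limma adjusted p = 0.856), or 0.69 without PLA_34d replicate 1. The autophagy receptor Sqstm1, which binds Keap1, had 2 transcripts in the table, and the abundant one was 1405 and 1456 CPM at AP_34d and 440 to 1121 CPM elsewhere, higher by 1.43 than PLA_34d (SE 0.46, adjusted p = 0.846), or 1.17 without PLA_34d replicate 1. Its other transcript stayed at 1.34 to 3.58 CPM, and reads of the 2 may be split between them.

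The repressor Bach1 showed a different order. It was 12.4 and 14.7 CPM before therapy and 22.0 to 61.2 CPM in all 8 later libraries, whatever the treatment. Its difference from RA_0 was 1.28 (SE 0.41, limma adjusted p = 0.377) at AP_1h, 1.44 (SE 0.41, adjusted p = 0.915) at AP_34d, 0.93 (SE 0.41, adjusted p = 1.00) at PLA_1h and 0.77 (SE 0.41, adjusted p = 0.914) at PLA_34d, and none passed. Nfe2l1, the Nrf2 relative, was 564 and 415 CPM at PLA_1h against 249 and 221 CPM at AP_1h, a difference of -1.04 (SE 0.39, adjusted p = 1.00), and Gsk3b, a kinase that promotes Nrf2 degradation, was 24.1 and 23.9 against 9.95 and 12 CPM, with a difference of -1.06 (SE 0.35, adjusted p = 0.869). Of the 12 transcripts of this list, 6 lay above and 0 below placebo at 34 days, beside 16% and 15% of all transcripts, with a median of 0.44. Without PLA_34d replicate 1, where 1 placebo library remained, 8 lay above and 1 below, beside 30.8% and 27.5% of all, and the median was 0.45. AP_34d replicate 1 lay above both placebo libraries for those 6. It lay below both for Cul3 (215 against 217 and 248 CPM), Mafg (22.1 against 26.2 and 35.7 CPM) and Nfe2l1 (356 against 373 and 441 CPM). The list was not counted again without AP_34d replicate 2. At 1 hour 2 lay above and 3 below, beside 13.9% and 16.7%.

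Over all 7 lists of related genes, 73 transcripts were tested and limma called 0 in every comparison, with unadjusted p under 0.05 and a 2-fold difference for 2 to 7 of them. In AP_34d against PLA_34d, 20 of 73 (27.4%) lay above and 5 (6.85%) below placebo, where 16% and 15% of all transcripts did, and the median was 0.21. In PLA_34d against RA_0 the direction was the other way, with 5 (6.85%) above and 13 (17.8%) below, beside 16.8% and 14.2% of all, and a median of -0.29. The comparisons share the PLA_34d libraries, and both counts moved without PLA_34d replicate 1, a choice made after seeing the data. AP_34d then lay above the remaining placebo library for 28 of 73 (38.4%) and below it for 16 (21.9%), beside 30.8% and 27.5% of all transcripts, with a median of 0.08. That placebo library lay above RA_0 for 17 (23.3%) and below it for 21 (28.8%), beside 28.4% and 29.5%, with a median of -0.04. The counts of AP_34d against PLA_34d were not repeated without AP_34d replicate 2. At 1 hour, AP_1h against PLA_1h gave 11 (15.1%) above and 12 (16.4%) below, beside 13.9% and 16.7%, a share near that of all transcripts.

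**Figure D4:**
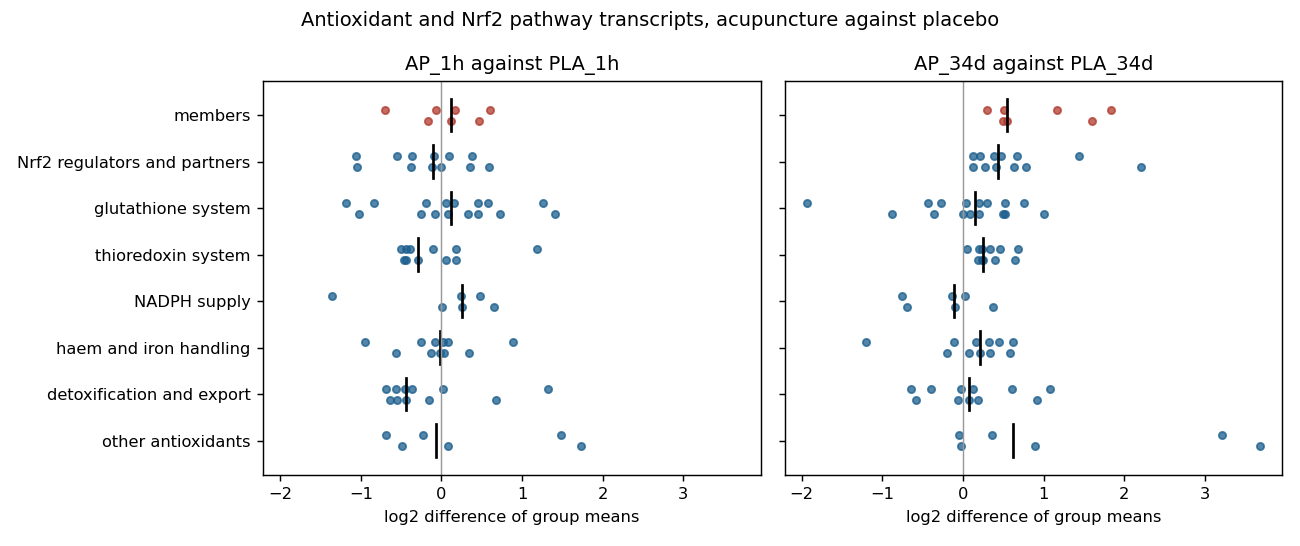
Difference of group means of log2(CPM + 1) for each transcript (points) of the members and of 7 related lists, with the median of each list as a black line, for acupuncture against placebo at 1 hour and at 34 days. At 34 days the regulators lie at a median of 0.44 and the glutathione list at 0.14, and the 2 points beyond 3 are the metallothioneins Mt1a and Mt2A.

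The metallothioneins, metal-binding antioxidant proteins, showed the widest differences among these lists. Mt2A was 618 and 88.9 CPM at AP_1h, 80.2 and 61.2 CPM at PLA_1h, 63.7 and 93.1 CPM at AP_34d, 1.79 and 12.2 CPM at PLA_34d, and 6.92 and 22.3 CPM before therapy. Thus both 1 hour groups and AP_34d lay above both RA_0 and PLA_34d, with Mt2A differences of 4.12 at AP_1h (SE 0.91, limma adjusted p = 0.233) and 2.39 at PLA_1h (SE 0.91, adjusted p = 1.00) from RA_0. AP_34d exceeded PLA_34d by 3.68 (SE 0.91, adjusted p = 0.846), or by 2.56 without PLA_34d replicate 1. Mt1a followed the same order, from 2.92 CPM at PLA_34d to 426 CPM at AP_1h, and its difference of 3.22 between AP_34d and PLA_34d was 2.61 without that library.

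In the glutathione list 16 transcripts were tested. Glrx, the glutaredoxin, was 22.2 and 47.6 CPM at AP_1h against 10.3 and 13.2 CPM at PLA_1h (1.41, SE 0.43, limma adjusted p = 0.792), and Gsta4 was 0.76 and 0.28 CPM at AP_1h against 3.82 and 2.67 CPM before therapy, which is near the 3-read floor of 0.297 to 0.716 CPM. The cystine carrier Slc7a11 was 16.5 CPM in PLA_34d replicate 1, the library that stood apart, and 0 to 4.11 CPM in the others. Of the thioredoxin system, 11 transcripts, 3 lay above placebo at 34 days and 0 below, beside 16% and 15% of all transcripts. Txnip, the thioredoxin inhibitor, was 3541 and 2636 CPM at AP_1h, above the 788 to 2517 CPM of the other 8 libraries. At 34 days it was 1968 and 2074 CPM in AP_34d against 1162 and 1431 CPM in PLA_34d. Limma called neither difference. In the NADPH list Idh1 was 20.2 and 22.1 CPM at AP_1h and 47.1 to 78.9 CPM in every other library, a difference of -1.35 from PLA_1h (SE 0.33, adjusted p = 0.543).

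In the haem and iron list, the constitutive oxygenase Hmox2 stayed between 21.0 and 39.1 CPM in all libraries, with differences of at most 0.25 in size. Blvrb, a biliverdin reductase, was 32.2 and 34.7 CPM at AP_34d and 18.3 and 25.2 CPM at PLA_34d. At 1 hour it was 27.1 and 10.9 CPM in AP_1h and 37.6 and 31.6 CPM in PLA_1h. The other biliverdin reductase, Blvra, was 11.7 and 7.47 CPM at AP_34d and 8.64 and 12.1 CPM at PLA_34d. The iron store subunit Fth1 ranged from 781 to 2669 CPM, the highest before therapy, and Tfrc, the transferrin receptor, was 62.3 and 74.4 CPM at AP_34d against 455 and 130 CPM before therapy (-1.82, SE 0.64, limma adjusted p = 0.967). Of the 11 transcripts 2 lay above and 1 below placebo at 34 days, beside 16% and 15% of all transcripts. In the detoxification list the retinal dehydrogenase Aldh1a1 was 231 and 217 CPM before therapy and 62.7 and 87.1 CPM at AP_34d (-1.59, SE 0.38, adjusted p = 0.722), with 126 and 75.1 CPM at PLA_34d, and it was 174 and 303 CPM at AP_1h against 103 and 80.0 CPM at PLA_1h (1.33, SE 0.38, adjusted p = 0.749). Nqo2, the relative of Nqo1, was 9.57 and 5.83 CPM at AP_34d and 24.6 and 15.7 CPM before therapy (-1.28, SE 0.46, adjusted p = 0.967).

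Hmox1 is also abundant in macrophages that take up haem, so macrophage and red cell markers were read beside it. All 13 macrophage markers were in the table, and their summed level was 266 and 146 CPM at AP_34d, 411 and 96.9 CPM at PLA_34d, 342 and 130 CPM at AP_1h, 156 and 119 CPM at PLA_1h, and 126 and 115 CPM before therapy. The highest sum, in PLA_34d replicate 1, went with 16.2 CPM of Hmox1, and the highest Hmox1, in AP_34d replicate 2, with a sum of 146 CPM. Of the 11 macrophage markers tested, 8 had a higher mean at AP_34d than at PLA_34d. Without overlap 1 lay above and 1 below, beside 16% and 15% of all transcripts. Without PLA_34d replicate 1, 10 of the 11 had a higher mean, all 10 above the remaining placebo library, beside 30.8% of all transcripts, and the median difference went from 0.14 to 0.86. Against RA_0, the mean was higher for 11 of 11 at AP_1h, with a median of 0.88. There 4 lay above, beside 20.6% of all transcripts, and 0 below. At AP_34d the mean was higher for 10 of 11, with a median of 0.57. There 6 lay above, beside 16.4% of all transcripts, and 0 below. AP_1h had the higher mean for 11 of 11 against PLA_1h too, with a median of 0.56. In that comparison 1 lay above and 0 below, beside 13.9% and 16.7% of all transcripts. Hmox1 itself differed from RA_0 by 1.28 at AP_1h and by 2.58 at AP_34d, and AP_1h differed from PLA_1h by 0.17. The difference of 2.58 shares libraries with the choice of Hmox1, and that of 0.17 turned to -0.80 without AP_1h replicate 1. With both placebo libraries at 34 days, the marker above was Cd163, the haemoglobin scavenger receptor. Cd163 was 18.2 and 19.9 CPM at AP_34d against 3.34 to 13.8 CPM in the other libraries. It ranked 7th among all transcripts in likeness to Hmox1 (Pearson r 0.89 over the 10 libraries). The marker below was Siglec1, at 1.76 and 1.05 CPM at AP_34d against 72.1 and 1.99 CPM at PLA_34d. Siglec1 stayed below without PLA_34d replicate 1. Marco was at 0 in both AP_34d libraries, as was Vsig4, and both genes were at 0 in both RA_0 libraries too. They were highest in PLA_34d replicate 1, at 26.0 and 1.68 CPM, and at most 0.42 CPM elsewhere. Of the 7 red cell markers in the table, the summed level was 518 and 358 CPM at AP_34d, 226 and 401 CPM at PLA_34d, 229 to 543 CPM at 1 hour, and 629 and 274 CPM before therapy. Of the 9 skeletal muscle markers, 1 had a higher mean at AP_1h than before therapy, and the median difference was -1.19. The same direction held in the other groups against RA_0. There 2 were higher at PLA_1h (median -0.19), 2 at AP_34d (median -0.24) and 0 at PLA_34d (median -0.58). The median of all transcripts lay between -0.011 and 0.0020 in these comparisons. The part of these cells in the levels of Hmox1 and the other members was not tested.

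**Figure D5:**
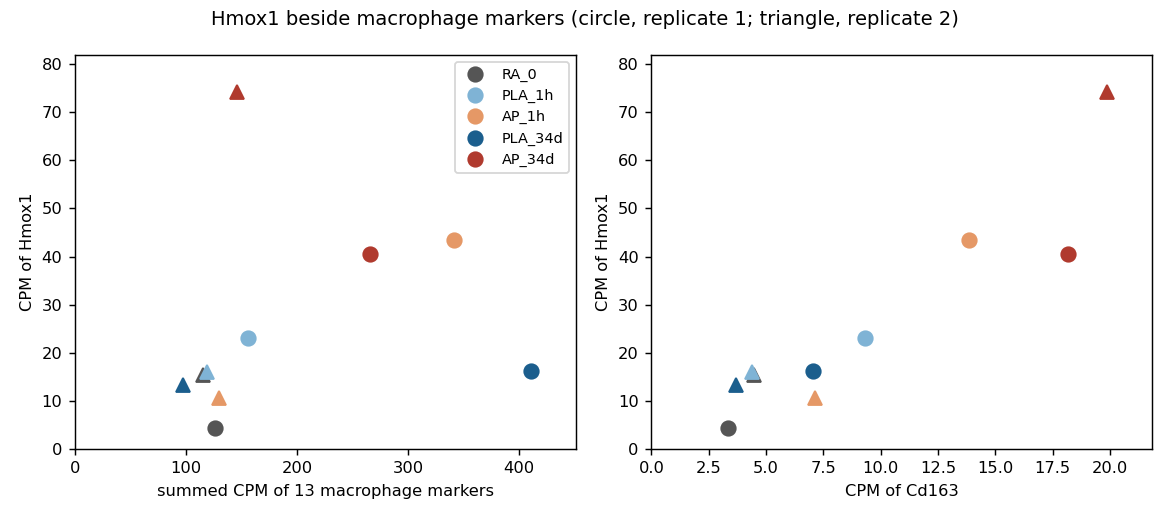
CPM of Hmox1 (vertical axis) against the summed CPM of 13 macrophage markers (left) and the CPM of Cd163 (right) in the 10 libraries, coloured by group, with circles for replicate 1 and triangles for replicate 2. PLA_34d replicate 1 has the highest sum, 411 CPM, with 16.2 CPM of Hmox1, while the 2 AP_34d libraries have the highest Cd163.

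The transcripts most like Hmox1 over the 10 libraries, by Pearson r of log2(CPM + 1), were Gstt2 (0.94), Usp36 (0.93), Fbxo32 (0.93), Ptges3l1 (0.90) and Nup93 (0.90). Fbxo32, a muscle ubiquitin ligase, was 490 and 148 CPM at AP_34d, 164 CPM in AP_1h replicate 1, and 21.2 to 93.0 CPM in the others. Those most like Txnrd1 were Ddi2 (0.94), Eif4g3 (0.94), Rab20 (0.93), LOC691024 (0.93) and Fxr2 (0.92). Ddi2 was 339 CPM in AP_34d replicate 2 and 59.6 to 118 CPM elsewhere. All are the highest of 10259 values that share the same libraries, and they are given as a description.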

How the data were processed

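RNA-seq was done by the study on total RNA of sub-epidermal muscle from 10 rats. Per the labels, CASAVA 1.8.2, cutadapt 1.2.1, Bowtie2 2.1.0, HTSeq 0.5.4p3, edgeR 3.4.2 and the rn4 build were used. The authors counted reads per transcript, scaled them to CPM with TMM factors and deposited this normalised signal (CPM). Use of strand in counting was not given. Low values were whole multiples of 1 step per library, and the reads recovered from them were whole within 0.01 reads for 100% of values.

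Here limma 3.58.1 (R 4.3.3) was fitted to log2(CPM + 1) of all 10 libraries, with group means and a mean trend, for the 10259 transcripts that reached 1 CPM in each of the 2 libraries of some group, with Benjamini-Hochberg adjustment and a call at 0.05. A fold on this scale understates the change of low genes. Replicates are separate rats. Alternatives were limma-voom, edgeR 4.0.16 and DESeq2 1.42.0 on recovered reads, other pseudocounts, filters, scalings and samples. Lists and macrophage markers without PLA_34d replicate 1, and medians over the 5 members not picked by value, were added after seeing the data. Correlations used 100000 permutations. Named genes were the members, per list and comparison at most 2 transcripts per direction that met the study's selection rule, 7 genes named for their level, and the 5 most alike to Hmox1 and to Txnrd1. Mafg, Mafk, Cul3, Myh1, Myh7, Blvra, Cd163, Siglec1, Eid3 and the genes in the flagged results were named after their values were seen. The members and lists were chosen with earlier results of these data known. The scripts were tested on simulated data. Gsta1, Ggt1, Sesn2, Pgd and Alas1 were listed but not analysed here. Promoter sequences are from RefSeq (GRCr8), whose coordinates differ from those of rn4. The number of reads limits low genes most.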

Additional observations from a re-analysis of the deposited data

Results flagged for a closer look

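4 of the 73 transcripts of the related lists lay on opposite sides of placebo at the 2 times. For these, both acupuncture libraries lay below both placebo libraries at 1 hour and above them at 34 days. None was a member, 4.01% of all transcripts had opposite sides in either order, and nothing is read from the count. The difference between the effects at 34 days and at 1 hour, tested as an interaction in limma, was 1.57 on the log2 scale for Blvrb (SE 0.59), 1.52 for Gsr (SE 0.46), 1.30 for Abcc4 (SE 0.49) and 0.95 for Btrc (SE 0.41), with an adjusted p of 1.00 for each. Gsr, glutathione reductase, was 23.5 and 14.1 CPM at AP_1h, 37.7 and 38.3 CPM at PLA_1h, 36.7 and 54.7 CPM at AP_34d and 31.2 and 31.7 CPM at PLA_34d. Abcc4 had 2 transcripts in the table, and the one flagged was the lower, at 1.73 to 4.63 CPM. Its other transcript overlapped placebo at 34 days, with 12.3 and 10.9 CPM at AP_34d against 6.84 and 14.5 CPM at PLA_34d. The interaction passed for 0 of 10259 transcripts.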

How the results depend on the processing

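No member was called in any comparison under any of the 23 alternatives. Counts of all transcripts called moved more. For AP_1h against RA_0 (3 called), pseudocount 4 gave 1, no filter 13, only the 2 groups compared 108, limma-voom and edgeR 0, DESeq2 166 and leaving out 1 library 0 to 6 (0 when a library of RA_0 or AP_1h was dropped, 1 when either of PLA_1h was, 6 when either of PLA_34d was, and 5 when AP_34d replicate 1 was). With no filter, 1 was called for PLA_1h and 16 for PLA_34d against RA_0, 13 for AP_1h against PLA_1h and 19 for AP_34d against PLA_34d, each from 0. DESeq2 called 33 for AP_34d, 10 for PLA_1h and 38 for PLA_34d against RA_0, 39 for AP_1h and 87 for AP_34d against placebo. For AP_1h against PLA_1h a mean of at least 5 CPM gave 1, and only the 2 groups compared gave 12. Leaving out 1 library, with the same transcripts tested, gave at most 1 for PLA_1h against RA_0 (0 to 1, the latter without PLA_1h replicate 2). Without PLA_34d replicate 2 it gave 161 for PLA_34d against RA_0 and 174 when AP_34d was set against PLA_34d, both ranges starting at 0. A library left alone in its group is assumed to vary like the others. The causes were not tested.

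Replicates share only a number, as the correlation of replicate differences between groups ran from -0.46 to 0.45. With the replicate number as a block, the pairing took the calls of AP_1h against RA_0 from 3 to 0 and changed no other count.

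Of the correlations, the called pair fell out under quantile normalization (0 pairs) and the number ran from 0 to 2 when leaving out 1 library, with 0 without AP_34d replicate 2 and 2 without AP_1h replicate 2, and Nqo1 with Gclc ran from -0.57 to 0.0550.

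Small differences changed sign. Txnrd1 in AP_1h against RA_0 was 0.00497 without the 20 most abundant transcripts, 0.0470 by edgeR and 0.0367 by DESeq2, and Nqo1 in PLA_1h against RA_0 was -0.0165 by edgeR and -0.0453 by DESeq2. Leaving out 1 library gave these ranges. AP_1h against PLA_1h ran from -0.80 to 1.13 for Hmox1, -0.59 to 0.26 for Txnrd1, -0.35 to 0.21 for Gclm, -0.64 to 1.84 for Srxn1 and -0.15 to 0.39 for Nfe2l2. AP_1h against RA_0 ran from -0.43 to 0.42 for Txnrd1, -0.0424 to 0.20 for Gclm, -0.39 to 2.09 for Srxn1 and -0.31 to 0.23 for Nfe2l2. PLA_1h against RA_0 ran from -0.10 to 0.43 for Txnrd1, -0.48 to 0.59 for Nqo1, -0.31 to 0.24 for Gclc, -0.13 to 0.42 for Gclm and -0.0417 to 0.54 for Srxn1. AP_34d against RA_0 ran from -0.61 to 0.45 for Nqo1 and -0.14 to 0.78 for Nfe2l2. PLA_34d against RA_0 ran from -0.0746 to 1.56 for Hmox1, -0.0672 to 0.49 for Gclc, -0.27 to 0.0703 for Gclm and -0.40 to 0.18 for Srxn1. Median shifts of all transcripts between scalings stayed under 0.1.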

Other observations

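AP_34d replicate 2 was the highest library for 6 of the 7 members, and it was also the highest for Maff, Mafg, Mafk, Bach1, Keap1 and Gsr. AP_1h replicate 1 ranked next for 4 members. Acupuncture and placebo also differ in the site of puncture, so that puncture of the sampled tissue and the therapy cannot be told apart. Levels of different genes were not compared, since exon lengths were not used here.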
